A study of Mus musculus with 12 samples.

Results

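The oligodendrocyte lineage precursor genes examined here were Pdgfra, Cspg4, Olig1, Olig2, Sox10, Nkx2-2 and Gpr17, which mark the glial precursors of the spinal cord and the cells they first give rise to. They were chosen by name, with earlier results of these data known. Each was measured by the probesets of the deposited table that name it and no other gene. The 7 genes, with 66 probesets, were thus 7 of 15830 genes measured. Whole tissue was taken from mice with a lumbar hemisection of the spinal cord or a laminectomy alone, and the question was how injury and the loss of EphA4, a receptor for axon guidance cues, altered the transcripts. There were 3 mice in each of 4 groups, namely injured EphA4 knockout, injured wild-type, sham-operated EphA4 knockout and sham-operated wild-type, with 1 Affymetrix exon array per mouse. All mice were of the C57/BL6 strain, were killed 4 days after surgery and were aged 9 to 14.5 weeks by their labels, with 2 males and 1 female labelled in every group. The knockout was constitutive, so that EphA4 was missing from every cell and throughout development, and the wild-type mice were littermates. A length of 6 mm of the left side of the cord was taken, which the labels call the uninjured side and the study's own methods the injured one.

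Oligodendrocyte precursor cells are spread through the grey and white matter of the adult cord, divide slowly, and give rise to the oligodendrocytes that wrap axons in myelin. They are recognised by the growth factor receptor encoded by Pdgfra and by NG2, the surface proteoglycan encoded by Cspg4, and they share the transcription factors of the Olig, Sox and Nkx families with the cells that descend from them. After injury to the cord these precursors are known to divide and to gather around the lesion. Pdgfra is also made by fibroblasts and Cspg4 by pericytes of blood vessels, so neither gene belongs to the precursors alone.

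The sequences before the start sites of Cspg4 and Nkx2-2, which rose after injury, and of Olig2, which fell after injury in wild-type cords, are shown as the regulatory DNA of 3 members whose levels moved. Promoters were read for 4 of the 7 members, these and Pdgfra, and Gpr17, Olig1 and Sox10 are named only. Each is the run of 250 bases before the start site in RefSeq's annotation of GRCm38.p6, read in the direction of the gene, and capitals mark a match to a searched motif. They lie at chr9:56864854-56865103 on the plus strand for Cspg4, chr2:147186403-147186652 on the minus strand for Nkx2-2 and chr16:91225300-91225549 on the plus strand for Olig2.
Cspg4: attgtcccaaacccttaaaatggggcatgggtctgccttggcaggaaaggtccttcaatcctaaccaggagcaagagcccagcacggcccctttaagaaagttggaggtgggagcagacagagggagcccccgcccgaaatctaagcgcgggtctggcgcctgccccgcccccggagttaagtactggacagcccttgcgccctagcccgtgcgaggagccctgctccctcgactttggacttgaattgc
Nkx2-2: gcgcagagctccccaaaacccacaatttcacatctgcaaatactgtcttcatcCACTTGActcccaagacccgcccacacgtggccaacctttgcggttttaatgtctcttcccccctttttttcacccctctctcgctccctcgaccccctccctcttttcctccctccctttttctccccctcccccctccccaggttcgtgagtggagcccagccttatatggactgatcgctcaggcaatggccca
Olig2: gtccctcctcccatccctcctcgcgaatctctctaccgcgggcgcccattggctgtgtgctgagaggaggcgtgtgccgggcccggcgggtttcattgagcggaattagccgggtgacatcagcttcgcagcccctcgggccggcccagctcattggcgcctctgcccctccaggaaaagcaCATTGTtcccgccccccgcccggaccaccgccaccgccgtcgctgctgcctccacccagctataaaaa
On both strands, motifs of the families to which the members' own transcription factors belong were searched, namely the E-box CAGCTG, the Sox motifs ACAAAG and ACAATG, and the NK2 motif TNAAGTG, where N is any base. The window of Nkx2-2 held 1 NK2 match at position -197 from the start, and that of Olig2 held 1 match to ACAATG at position -68. No capitals stand in the window of Cspg4. Of 32851 promoters of this length in the reference, 13% held the E-box, 16.5% held ACAAAG, 10.7% held ACAATG and 10.1% held the NK2 motif.

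The deposited table gives a log2 intensity for each exon probeset after robust multi-array averaging (RMA). The level of a gene is the mean over its probesets, of which there were 9 per gene at the median. The medians of the 12 columns ranged over 5.79 to 5.85, and the precision is limited by 3 arrays per group. Epha4, the targeted gene, lay between 4.82 and 5.19 in the 6 EphA4 knockout arrays and between 5.87 and 6.81 in the 6 wild-type arrays, without overlap. In sham-operated EphA4 knockout replicate 2, labelled male, the Y-linked gene Eif2s3y was at 3.25, against 7.21 to 8.15 in the other arrays labelled male. Injured EphA4 knockout replicate 2 had the narrowest spread of signal, with an interquartile range of 3.28, against 3.47 to 3.61 in the other injured arrays. Fibroblast genes stood high in replicate 1 of both EphA4 knockout groups. RNA extraction batches 1 and 2 held 5 arrays each, with all 4 groups in both, while injured EphA4 knockout replicate 3 and sham-operated EphA4 knockout replicate 1 were each alone in a batch. A difference within batch 1 or 2 thus sets 1 array against 1 in EphA4 knockout cords, and 2 against 1 in wild-type cords. Such within-batch differences were not tested.

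Among the surface receptors, Gpr17 rose most after injury and Cspg4 rose less, both in both genotypes, while Pdgfra did not pass the test. Calls of injury needed a limma p, adjusted over all genes by Benjamini-Hochberg, of less than 0.05 together with a change of 1.2-fold or more. On the mean of the injury effects in both genotypes 3 of the 7 members rose and 0 fell, beside 29.8% of all genes called, 12.8% upwards and 17% downwards. In bulk tissue, more or fewer cells of a type and more or less RNA per cell cannot be told apart.

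Gpr17 encodes a receptor that appears as precursors commit to becoming oligodendrocytes and is switched off before myelin is made. Its level was 7.78, 7.59 and 7.23 in injured EphA4 knockout cords and 7.15, 7.65 and 7.38 in injured wild-type cords, against 6.26, 6.54 and 6.21 in sham-operated EphA4 knockout cords and 6.20, 6.66 and 6.27 in sham-operated wild-type cords. All 6 injured arrays lay above all 6 sham-operated arrays, as in 8.86% of all genes. The mean injury effect was 1.11 on the log2 scale (SE 0.12, 2.16-fold, limma adjusted p = 1.59e-05), with 1.196 (SE 0.17) in EphA4 knockout and 1.02 (SE 0.17) in wild-type cords. Within extraction batches 1 and 2 alone the mean effect was 1.19 and 1.13, with 1.05 and 1.57 in EphA4 knockout and 1.32 and 0.68 in wild-type cords. In the reference annotation Gpr17 lies inside the span of Lims2, a gene of newly formed oligodendrocytes, so the assignment of its signal rests on the probe annotation.

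Cspg4 had levels of 5.70, 5.69 and 5.17 in injured EphA4 knockout and 5.46, 5.39 and 5.57 in injured wild-type cords. In sham-operated cords it was at 4.68, 4.71 and 4.68 in EphA4 knockout and at 4.76, 4.95 and 4.45 in wild-type mice. Every injured array again stood above every sham-operated one. The mean effect was 0.79 (SE 0.11, 1.73-fold, limma adjusted p = 8.76e-05), close in size in EphA4 knockout (0.83, SE 0.15) and wild-type cords (0.75, SE 0.15), and it was 0.85 and 0.89 within batches 1 and 2.

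Pdgfra encodes the receptor through which platelet-derived growth factor keeps precursors dividing. It was at 6.28, 5.44 and 6.39 in injured EphA4 knockout and at 6.12, 5.67 and 5.99 in injured wild-type cords, against 5.61, 5.74 and 5.57 in sham-operated EphA4 knockout and 5.81, 5.57 and 5.66 in sham-operated wild-type cords. Injured EphA4 knockout replicate 2 lay below every sham-operated array and injured wild-type replicate 2 within their range, while the other 4 injured arrays lay above them all. Its mean effect of 0.32 (SE 0.14, limma adjusted p = 0.104) did not pass. Without injured EphA4 knockout replicate 2 the effect was 0.47 (adjusted p = 0.00161) and passed, and with arrays weighted by their spread it was 0.41 (adjusted p = 0.00901). When each array was left out in turn, the effect ranged between 0.24 and 0.47. Over all alternatives its limma adjusted p reached 0.305. Within batch 1, which holds replicate 2 of both injured groups, the difference was -0.13, and within batch 2 it was 0.61.

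**Figure D1:**
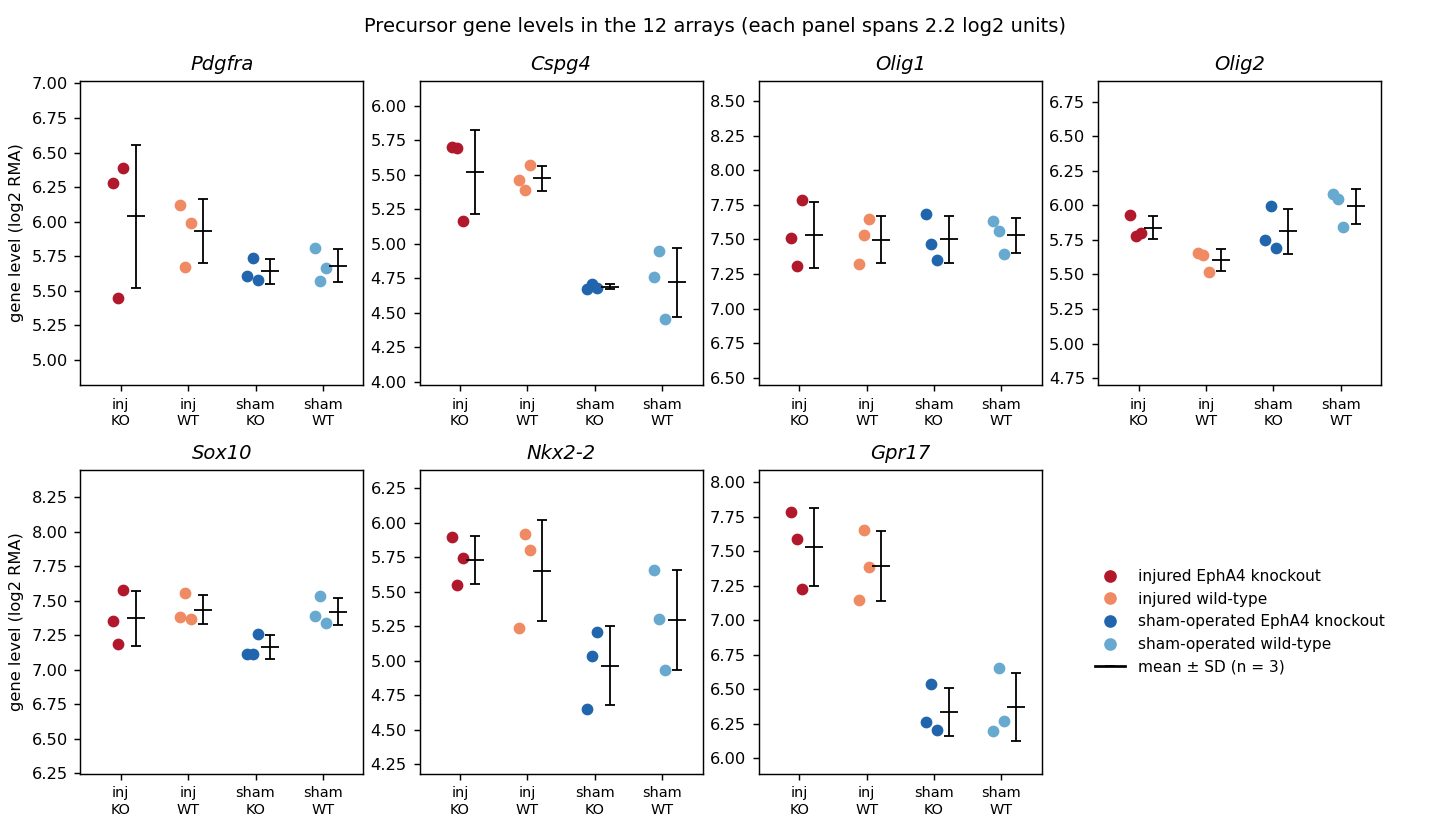
Gene level (log2 RMA, mean over probesets) of the 7 precursor genes in each of the 12 arrays, 3 points per group, with the mean and SD beside them. Every panel spans the same log2 range, the injured groups stand left of the sham-operated ones and EphA4 knockout left of wild-type, and only Cspg4 and Gpr17 show all 6 injured arrays above all 6 sham-operated arrays.

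Of the transcription factors, Nkx2-2 rose on the mean of both genotypes, Olig2 fell in wild-type cords, and Olig1 and Sox10 did not pass in any injury comparison. Nkx2-2, which drives precursors towards differentiation, was at 5.89, 5.55 and 5.75 in injured EphA4 knockout and 5.24, 5.92 and 5.80 in injured wild-type cords. Its sham-operated levels were 4.65, 5.04 and 5.21 in EphA4 knockout and 5.66, 5.30 and 4.93 in wild-type cords. The groups did not overlap in EphA4 knockout mice, as in 33.4% of all genes, and overlapped in wild-type mice, where injured replicate 1 was below 2 of the 3 sham-operated arrays. The mean effect was 0.56 (SE 0.15, 1.48-fold, limma adjusted p = 0.0104), with 0.77 (SE 0.21, adjusted p = 0.0215) in EphA4 knockout, which passed, and 0.36 (SE 0.21, adjusted p = 0.249) in wild-type cords, which did not.

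Nkx2-2 was measured by 3 probesets, and its calls were lost under several alternatives. The mean effect was 0.44 and missed the threshold with extraction batch as a fixed term, a fit without the 2 arrays that were alone in their batch (adjusted p = 0.0661), and also without replicate 1 of both EphA4 knockout groups (0.44, adjusted p = 0.0649). In EphA4 knockout cords the call was lost without injured replicate 1 (0.68, adjusted p = 0.0823), sham-operated replicate 1 (0.61, adjusted p = 0.0963) or sham-operated replicate 2, the array whose labelled sex is in doubt (0.80, adjusted p = 0.05002). Within batches 1 and 2 the mean difference was 0.36 and 0.41.

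Olig2 specifies the oligodendrocyte lineage and is present in all its stages. Its levels were 5.93, 5.78 and 5.80 in injured EphA4 knockout cords, against 5.75, 5.997 and 5.69 in sham-operated EphA4 knockout cords, and these overlapped. In wild-type mice it was at 5.66, 5.64 and 5.51 in injured cords, against 6.09, 6.05 and 5.85 in sham-operated cords, and every injured array was lower, while 43.2% of all genes had groups that did not overlap in that genotype. The injury effect was 0.03 (SE 0.11, limma adjusted p = 0.917) in EphA4 knockout and -0.39 (SE 0.11, 1.31-fold lower, adjusted p = 0.0206) in wild-type cords, and their mean of -0.18 (SE 0.08, adjusted p = 0.0898) did not pass. The call in wild-type cords was lost with the median of the probesets in place of the mean (-0.49, adjusted p = 0.105) and without injured replicate 3 (-0.34, adjusted p = 0.0877), sham-operated replicate 1 (-0.34, adjusted p = 0.0755) or sham-operated replicate 2 (-0.36, adjusted p = 0.0666). Within batches 1 and 2 the difference in wild-type cords was -0.51 and -0.29.

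Olig1, the neighbour of Olig2 on the chromosome, with no protein-coding gene between them, and a factor needed for the maturation and repair of myelinating cells, lay between 7.31 and 7.78 in injured EphA4 knockout and between 7.32 and 7.65 in injured wild-type cords. It lay between 7.35 and 7.68 in sham-operated EphA4 knockout and between 7.39 and 7.64 in sham-operated wild-type cords. The 4 groups overlapped fully, and the mean difference was 0.00 with a 95% interval of -0.21 to 0.22. Sox10, which is kept from precursor to myelinating cell, was at 7.35, 7.19 and 7.58 in injured EphA4 knockout and 7.38, 7.55 and 7.37 in injured wild-type cords, against 7.12, 7.12 and 7.26 in sham-operated EphA4 knockout and 7.39, 7.53 and 7.34 in sham-operated wild-type cords. The mean difference was 0.11 (95% interval -0.06 to 0.29, limma adjusted p = 0.331), and it was -0.12 with the median of the probesets.

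Counted by genotype, 3 of the 7 members rose and 0 fell in EphA4 knockout cords (Cspg4, Nkx2-2 and Gpr17), where 20.5% of all genes were called, 8.98% upwards and 11.5% downwards. In wild-type cords 2 rose and 1 fell (Cspg4 and Gpr17, against Olig2), where 24.1% of all genes were called, 11.2% upwards and 12.9% downwards. In EphA4 knockout cords 7 of 7 members had a difference above 0, with a median of 0.40, beside a median of -0.05 over all genes. Olig1 and Olig2 were each at only 0.03 there, and their signs changed in 5 and 6 of the alternatives tried. In wild-type cords 5 of 7 were above 0, with a median of 0.25, beside -0.10 over all genes. On the mean of both genotypes Pdgfra, Nkx2-2, Cspg4 and Gpr17 had differences between 0.32 and 1.11, and Olig2, Olig1 and Sox10 between -0.18 and 0.11. Over the whole set the median of the mean injury effect was 0.32, against -0.08 for all genes.

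**Figure D2:**
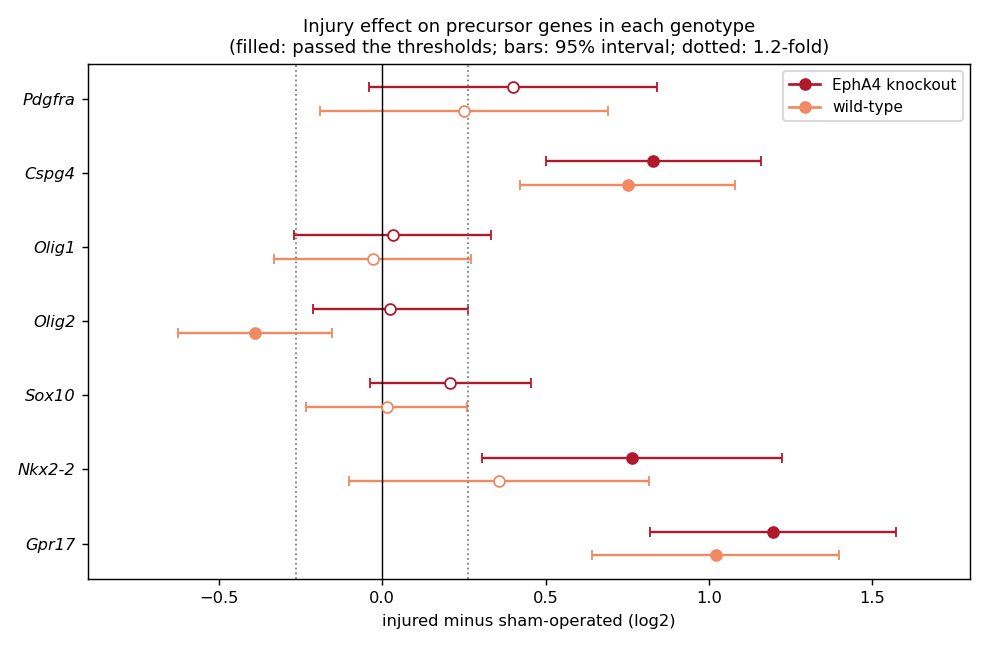
Injury effect on each precursor gene (injured minus sham-operated, log2, x axis) in EphA4 knockout and wild-type cords, with 95% intervals from limma, where filled points passed the thresholds for injury (dotted lines, 1.2-fold). Gpr17 and Cspg4 passed in both genotypes, Nkx2-2 in EphA4 knockout and Olig2, downwards, in wild-type cords.

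No member passed the comparison of the genotypes in either treatment. Genotype was compared in limma fits of the 6 arrays of each treatment, and a call needed 1.2-fold and a p of less than 0.01 without adjustment, thresholds taken over from the original methods. In injured cords 0 of 7 members passed, 0 had an unadjusted p under 0.05 (4.04% of all genes had one), and 0.796% of all genes were called. In sham-operated cords 0 of 7 passed, 1 had an unadjusted p under 0.05 (6.3% of all genes had one), and 1.35% of all genes were called. A one-way analysis of variance, the test named in the methods, was also run on the gene levels used here. It called 0 members in either treatment. The gene-level summaries of the original study were not remade.

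The gene closest to the threshold in sham-operated cords was Sox10, whose 3 EphA4 knockout arrays (7.12 to 7.26) were all below the 3 wild-type arrays (7.34 to 7.53). The difference was -0.26 (SE 0.10, 95% interval -0.48 to -0.03, limma adjusted p = 0.773), and 11.8% of all genes had groups that did not overlap in this comparison. All 7 members were below 0 in sham-operated EphA4 knockout cords, with a median of -0.04, beside a median of -0.008 over all genes. The signs of Pdgfra, Cspg4, Olig1 and Gpr17 changed in 1, 3, 3 and 4 of the alternatives tried. The widest interval was that of Nkx2-2 (-0.33, 95% interval -0.78 to 0.12). Cspg4 and Gpr17, which rose after injury, differed between the sham-operated genotypes by -0.03 (95% interval -0.33 to 0.26) and -0.04 (95% interval -0.37 to 0.29).

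In injured cords the 3 EphA4 knockout levels of Olig2 (5.78 to 5.93) were all above the 3 wild-type levels (5.51 to 5.66). The difference was 0.23 (SE 0.11, 95% interval -0.02 to 0.48, limma adjusted p = 0.998), and 8.63% of all genes had groups that did not overlap. With array weights it was 0.32 and passed the thresholds of the genotype comparison (limma adjusted p = 0.262). For Gpr17 the difference was 0.14 (95% interval -0.27 to 0.54), for Cspg4 0.05 (95% interval -0.32 to 0.41) and for Pdgfra 0.11 (95% interval -0.44 to 0.66), so that with 3 arrays per group differences as large as those bounds are within the intervals.

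**Figure D3:**
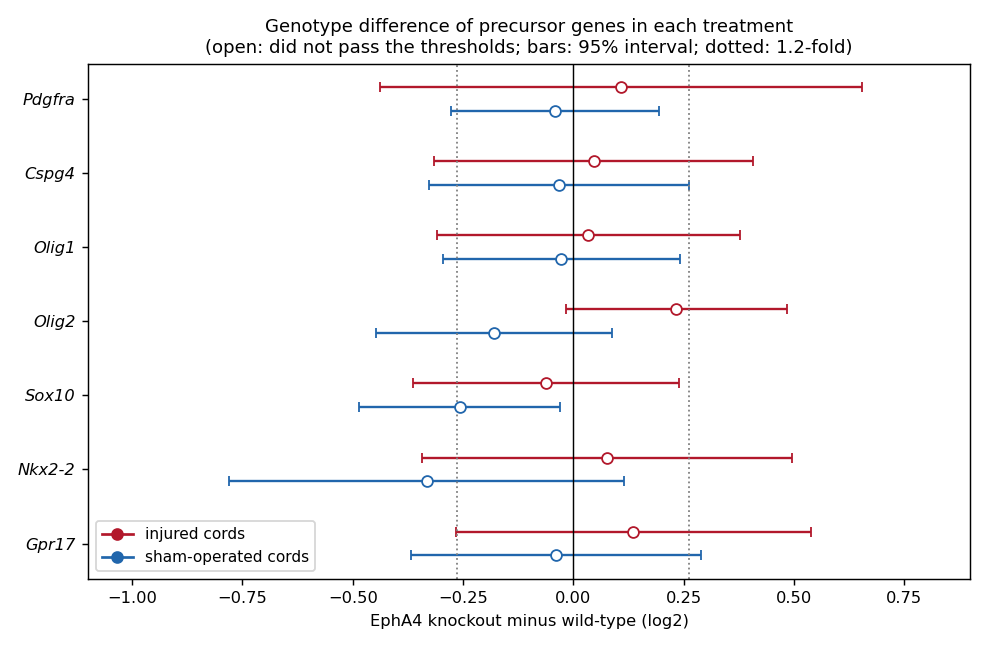
Difference between the genotypes (EphA4 knockout minus wild-type, log2, x axis) for each precursor gene in injured and in sham-operated cords, with 95% intervals from limma fits of 6 arrays each. All points are open, since none passed the thresholds, and Olig2 lies at 0.23 in injured and -0.18 in sham-operated cords.

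Whether injury acted differently in the genotypes was tested directly, as the injury effect in EphA4 knockout minus that in wild-type cords. Of the 7 members 0 passed at an unadjusted p under 0.01, 1 had an unadjusted p under 0.05 (5.57% of all genes had one), and 1.05% of all genes were called. That member was Olig2, with a difference of 0.41 (SE 0.15, 95% interval 0.08 to 0.75, limma adjusted p = 0.853). It passed the unadjusted threshold without sham-operated EphA4 knockout replicate 2 (0.51), without sham-operated wild-type replicate 3 (0.49) and with array weights (0.47), while its limma adjusted p over all genes ranged between 0.484 and 0.999 in the alternatives tried. Within batches 1 and 2 the difference was 0.29 and 0.53. The responses of Nkx2-2 differed by 0.41 with a wider interval (-0.24 to 1.06, limma adjusted p = 0.902), so that its passing in EphA4 knockout and not in wild-type cords is not shown to be a difference between them.

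The probesets of a gene differed in how evenly injury moved them; they were not placed on exons here. All 10 probesets of Cspg4 were above 0 and 6 were called as higher, beside 7.42% of all probesets, and their effects ran between 0.02 and 1.59. Of the 5 probesets of Gpr17, 4 were called as higher, with effects between 1.18 and 1.62. The remaining probeset was at -0.03 and was among the dimmest 25% of all probesets, with a mean level of 3.79. Limma's diffSplice, a test of exon usage that asks here whether the probesets of a gene share 1 effect, gave an adjusted p of 9.11e-04 for Gpr17 and of 0.00891 for Cspg4, and 8.37% of the 15021 genes with at least 2 probesets passed. With the dimmest 25% of probesets left out only Cspg4 passed, and Cspg4 in turn no longer passed without injured EphA4 knockout replicate 1, injured wild-type replicate 1 or 3, or sham-operated EphA4 knockout replicate 3.

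The other members showed no such spread by that test. All 8 probesets of Olig2 lay below 0 on the mean of both genotypes, between -0.44 and -0.05, and 0 passed singly. Of the 25 probesets of Pdgfra 23 were above 0, between them reaching 1.01, and 2 were called as higher. All 3 probesets of Nkx2-2 were above 0 (0.28, 0.62 and 0.78), of which the last was called. Olig1 had 5 probesets above and 3 below 0, and Sox10 had 6 above and 1 below, with 0 called in either gene.

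**Figure D4:**
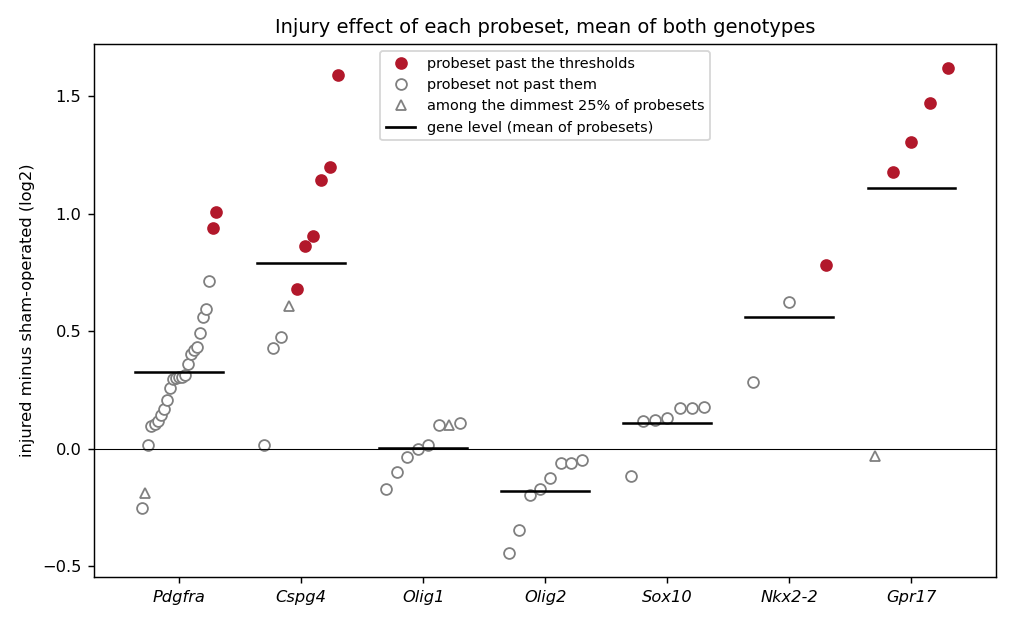
Mean injury effect (injured minus sham-operated, log2, y axis) of every probeset of the 7 precursor genes, ordered by size within a gene, with the gene level as a line. Filled points passed the thresholds for injury over all probesets, triangles are probesets among the dimmest 25%, and the only Gpr17 probeset near 0 is such a triangle.

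For the 3 members that rose on the mean of both genotypes, the genes with the nearest profile were sought among 13341 genes with at least 4 probesets, by the root mean square (RMS) of the differences over the 12 arrays after centring each gene on its mean. Nearest to Gpr17 were Lhfpl2, a membrane protein (RMS 0.16), Pxdc1, listed under an older symbol (0.17), and Ctsa, a lysosomal protease (0.19), beside an RMS of Gpr17 about its own mean of 0.59. Nearest to Cspg4 were Ctsb, also a lysosomal protease (0.14), Nfkb2, a transcription factor subunit of inflammation (0.15), and Pxn, a protein of cell adhesions (0.15), beside 0.43 for Cspg4 itself. Nearest to Nkx2-2 were Vcam1, an adhesion molecule of activated vessels (0.18), Inf2, an actin regulator listed under an older symbol (0.20), and Tagap (0.20), beside 0.39. None of these 9 genes was among the precursor or oligodendrocyte genes listed here. Those listed genes are few beside the 13341 searched, so their absence carries no weight.

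Other genes that mark precursors moved in both directions after injury. Of 15 such genes 12 were measured, and on the mean of both genotypes 5 rose, 3 fell and 4 did not pass, with a median of 0.11. Vcan, which encodes versican, a proteoglycan of the matrix around precursors, rose by 1.33 (SE 0.13), and its levels were 7.46, 6.65 and 7.45 in injured EphA4 knockout and 7.20, 7.39 and 7.38 in injured wild-type cords, against 5.81 to 6.20 in sham-operated EphA4 knockout and 5.70 to 5.94 in sham-operated wild-type cords. Sox6, a transcription factor that holds precursors immature, rose by 0.57 (SE 0.08), the matrix gene Matn4 by 0.40 (SE 0.09) and Tnr, which encodes tenascin-R, by 0.34 (SE 0.08). Sox5, the close relative of Sox6, fell by 0.31 (SE 0.08). Without replicate 1 of both EphA4 knockout groups 4 of the 12 rose and 1 fell.

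In the next stages of the lineage, genes also moved in both directions, beside 12.8% of all genes called upwards and 17% downwards. Among 9 measured genes of committed and newly formed oligodendrocytes 4 rose, 1 fell and 4 did not pass. Itpr2, a calcium release channel that marks newly formed cells, rose by 0.50 (SE 0.08), Neu4 by 0.46 (SE 0.10) and Lims2 by 0.37 (SE 0.10), while Gpr37, a receptor of maturing oligodendrocytes, fell by 0.38 (SE 0.07). Of 11 measured genes of mature myelin 1 rose, 2 fell and 8 did not pass, with a median of -0.18. Opalin, a membrane protein of mature oligodendrocytes, fell by 0.72 (SE 0.17), Fa2h, which makes the hydroxylated lipids of myelin, fell by 0.56 (SE 0.13), and Cldn11, the claudin of myelin's tight junctions, rose by 0.35 (SE 0.12). Opalin and Fa2h passed in wild-type cords (limma adjusted p = 0.00935 and 0.0144) and not in EphA4 knockout cords (0.185 and 0.151). For neither gene did the difference between the responses pass. Without replicate 1 of both EphA4 knockout groups the count was 0 higher and 3 lower for mature myelin, so that the rise of Cldn11 was lost, and 3 higher and 2 lower for the committed and newly formed cells. In none of these 3 lists did a gene pass the genotype comparison in injured or in sham-operated cords.

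Among the ligands of the platelet-derived growth factor family and the sister receptor of Pdgfra, 2 of 5 genes rose and 1 fell. Pdgfrb, the receptor of pericytes, rose by 0.64 (SE 0.15), Pdgfb by 0.28 (SE 0.10), and Pdgfd fell by 0.29 (SE 0.10), while Pdgfa, the main ligand for precursors, gave -0.18 (SE 0.09, limma adjusted p = 0.165). These counts came to 1 higher and 0 lower without replicate 2 of the injured EphA4 knockout group, without replicate 2 of the sham-operated EphA4 knockout group, or without replicate 1 of both EphA4 knockout groups. Of 8 measured growth and survival signals 4 rose and 2 fell, with the cytokine gene Tgfb1 up by 1.71 (SE 0.14), Igf1, a survival factor for oligodendrocytes, by 1.496 (SE 0.12), and Fgf2, a mitogen of precursors, by 0.89 (SE 0.09), while Nrg1, an axonal signal to glia, fell by 0.37 (SE 0.07), and 4 rose and 1 fell without replicate 1 of both EphA4 knockout groups. Of 10 signals that hold back differentiation 3 rose and 2 fell. Notch1 rose by 0.61 (SE 0.09) and its ligand Jag1 by 0.40 (SE 0.12), whereas Lingo1 fell by 0.49 (SE 0.11) and Hes5, a target of Notch, by 0.37 (SE 0.12). That count was 2 higher and 1 lower without sham-operated EphA4 knockout replicate 2, and 1 higher and 2 lower without replicate 1 of both EphA4 knockout groups. Among 6 measured relatives of the members 2 rose and 1 fell: Kit, a receptor of the family of Pdgfra, fell by 0.53 (SE 0.10), Pdgfrb rose as above and Sox9, of the family of Sox10, rose by 0.30 (SE 0.08). That count was 1 higher and 1 lower without sham-operated EphA4 knockout replicate 2, and likewise without replicate 1 of both EphA4 knockout groups.

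Markers of other cells that can express the same genes also moved with injury. Of 10 genes of fibroblasts and pericytes 5 rose and 0 fell. Among those that rose were the matrix genes Dcn (2.56, SE 0.37), Lum (2.56, SE 0.47) and Col3a1 (1.96, SE 0.32). The peptidase gene Anpep rose by 1.19 (SE 0.20). The count of this list was 7 higher and 0 lower without replicate 1 of both EphA4 knockout groups. The mean level of the fibroblast and pericyte list was 6.30 to 7.55 in injured EphA4 knockout and 6.48 to 6.89 in injured wild-type cords, against 5.15 to 6.33 in sham-operated EphA4 knockout and 5.23 to 5.67 in sham-operated wild-type cords. Injured EphA4 knockout replicate 1 had the highest list mean (7.55), with Cspg4 at 5.70 and Pdgfra at 6.28, and injured EphA4 knockout replicate 2 the lowest of the injured arrays (6.30), with Cspg4 at 5.69 and Pdgfra at 5.44. Injured EphA4 knockout replicate 3 had a list mean of 6.34, with Cspg4 at 5.17 and the highest Pdgfra of all arrays (6.39). The list means of injured wild-type replicates 1, 2 and 3 were 6.88, 6.48 and 6.89. Cspg4 stood there at 5.46, 5.39 and 5.57, and Pdgfra at 6.12, 5.67 and 5.99. Sham-operated EphA4 knockout replicate 1 had the highest list mean of the sham-operated arrays (6.33), with Cspg4 at 4.68 and Pdgfra at 5.61. The pericyte genes Rgs5, Abcc9 and Kcnj8 gave 0.26, 0.11 and 0.00 and did not pass.

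Of 9 measured genes of dividing cells 9 rose, among them the mitotic kinase gene Cdk1 (2.21, SE 0.09) and the topoisomerase gene Top2a (3.10, SE 0.14), with a list mean of 5.27 to 5.59 in injured EphA4 knockout and 5.81 to 5.99 in injured wild-type cords, against 3.74 to 3.87 in sham-operated EphA4 knockout and 3.84 to 3.96 in sham-operated wild-type cords. Of 10 genes of macrophages and microglia 10 rose, among them the integrin gene Itgb2 (2.81, SE 0.07) and the lysosomal gene Cd68 (3.93, SE 0.13), with a mean of 7.88 to 8.29 in injured EphA4 knockout and 8.18 to 8.61 in injured wild-type cords, against 5.37 to 5.61 in sham-operated EphA4 knockout and 5.42 to 5.58 in sham-operated wild-type cords. Of 5 measured Schwann cell genes, which include cells that carry Sox10, 1 rose (Egr2, 0.55, SE 0.15), and the list mean was 4.11 to 4.83 in injured EphA4 knockout and 4.08 to 4.39 in injured wild-type cords, against 4.08 to 4.36 in sham-operated EphA4 knockout and 4.02 to 4.12 in sham-operated wild-type cords. Of 8 astrocyte genes 5 rose, such as the filament genes Vim (2.71, SE 0.09) and Gfap (1.05, SE 0.08), and 1 fell. Of 7 measured neuronal genes 0 rose and 4 fell, such as the synaptic vesicle gene Syt1 (by 0.69, SE 0.09). The part of these cells in the values of Cspg4, Pdgfra, Gpr17, Nkx2-2 and Vcan was not tested.

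**Figure D5:**
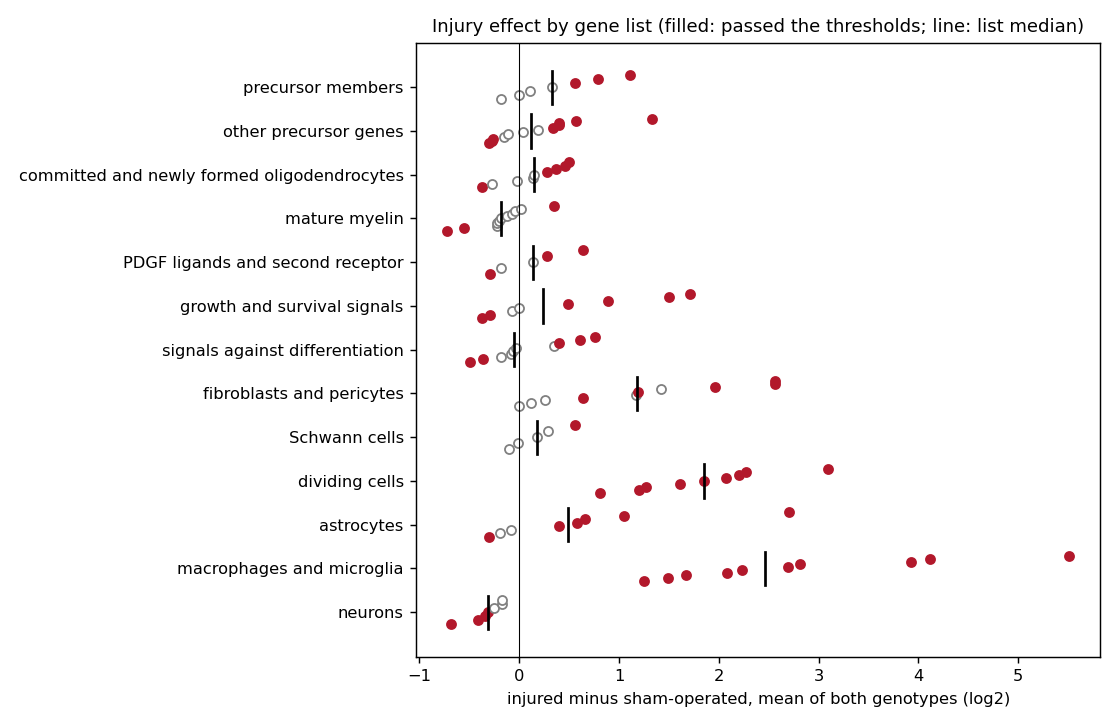
Mean injury effect (injured minus sham-operated, log2, x axis) of every measured gene in the precursor set and in 12 of the 13 other lists (the relatives of the members are not drawn), where each point is a gene, filled points passed the thresholds and the vertical line is the median of the list. The precursor genes lie between -0.18 and 1.11, around a median of 0.32, whereas all genes of dividing cells and of macrophages and microglia are filled and above 0.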

How the data were processed

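Total RNA of each mouse was hybridised to 1 Affymetrix Mouse Exon 1.0 ST array. Core probesets were normalized by the authors with RMA in Partek Genomics Suite, and the deposited values are log2 intensities per probeset; mm9 is the build named in the submitters' processing notes. Of 194262 probesets, 179614 name 1 gene and were used, 1331 name several and 13317 name none. Symbols were matched to RefSeq for 13745 genes as they stand and for 2046 by a synonym. Replicates are separate mice, and groups, sex, age and extraction batch come from the labels.

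In R 4.3.3 files were read (data.table, version 1.17.8) and gene levels fitted with limma 3.58.1, beside statmod 1.5.0 for the random block, p-values being adjusted over all genes by the Benjamini-Hochberg method. Injury effects, their mean and the difference between them were fitted over the 12 arrays, genotype differences within the 6 arrays of a treatment, and exon usage with diffSplice. The prior spread contributed 4.9 degrees of freedom. Members and lists were chosen with earlier results of these data known. Named with values are the members, up to 4 genes per list with the smallest p for the mean injury effect among those that passed, the 3 nearest profiles of each member that rose, and Epha4. Beyond that rule, Sox5, Pdgfa, Rgs5, Abcc9, Kcnj8, Mki67, Bmp4 and Eif2s3y were named after their values were seen. Alternatives were other summaries of probesets, scalings, filters and thresholds, terms for replicate number, batch and sex, array weights, the one-way analysis of variance named in the methods (a t-test for a pair of groups), and leaving out arrays. Counts of the lists without the arrays in doubt were chosen after seeing the data. The fits of the mean injury effect, the genotype differences, the difference between responses and exon usage were first tested on simulated data. The simulated arrays held no batches and no outlying arrays, and the other fits were not simulated.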

Additional observations from a re-analysis of the deposited data

Results flagged for a closer look

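A pair of genes of the dividing-cell list was flagged. The response of each to injury differed between the genotypes at an unadjusted p under 0.01 in limma, beside 1.05% of all genes called. Ccnb2, a cyclin of mitosis, rose by 1.72 in EphA4 knockout and by 2.42 in wild-type cords, a difference of -0.70 (SE 0.19, limma adjusted p = 0.853). Mki67, a marker of dividing cells, rose by 1.86 in EphA4 knockout and by 2.69 in wild-type cords, a difference of -0.83 (SE 0.22, limma adjusted p = 0.853). Both genes also passed the genotype comparison in injured cords (Ccnb2 -0.71, Mki67 -0.70, limma adjusted p = 0.998 for each). In sham-operated cords Bmp4, of the signals against differentiation, passed that comparison (0.37, SE 0.10, limma adjusted p = 0.640). No other listed gene passed a genotype comparison. Of all genes 0.796% were called in injured and 1.35% in sham-operated cords.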

How the results depend on the processing

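Of the 7 members, 3 rose on the mean of both genotypes, and 3 to 4 were called when each array was left out in turn; in EphA4 knockout cords the range was 2 to 4 around 3, in wild-type cords 2 to 3 around 3. Genotype calls stayed at 0 to 0 in both treatments, the difference between the injury responses gave 0 to 1, and exon usage 1 to 2 around 2. Restricted to genes above the median level, which removed Cspg4 and Nkx2-2 from the fit, 1 member was called on the mean and 1 in EphA4 knockout cords. Array weights called 1 member (Olig2) in injured cords and 1 (Olig2) for the difference between responses. Without the dimmest probesets, exon usage called 1 member. No value changed direction after being called. With the replicate number of the labels as a block, the counts of members were 3, 3 and 3 for injury, 0, 0 and 0 for genotype and the difference, and 2 for exon usage; the numbers did not pair the mice, since deviations of same-numbered arrays correlated between -0.30 and 0.22.

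Over all genes, genotype calls in injured cords moved to 553 with array weights, 202 with batch as a fixed term (97 higher, 105 lower), 209 with all 12 arrays fitted, 72 without injured wild-type replicate 3 and 83 with the one-way analysis of variance named in the methods, against 126 (21 higher, 105 lower). In sham-operated cords 213 (59 higher, 154 lower) became 92 with that analysis and 75 (52 higher, 23 lower) above the median level. The difference between responses gave 321 with array weights, 287 with batch as a fixed term (184 higher, 103 lower), 340 (227 higher, 113 lower) without injured EphA4 knockout replicate 3 and 84 (7 higher, 77 lower) above the median level, against 167 (81 higher, 86 lower), and 93 higher and 63 lower with arrays centred on their medians. At an adjusted p under 0.05 limma called 0, 1 and 0 genes in these comparisons. Injury calls fell to 1970 in EphA4 knockout and 2481 in wild-type cords with the median of the probesets, to 1541 in EphA4 knockout cords without replicate 1 of both groups, and to 2519 in wild-type cords without injured replicate 3, against 3242 and 3809.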
